A study of Mus musculus with 4 samples.

Results

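The enzymes that make eicosanoids were compared between monocytes (MON) and neutrophils (NEU) of mouse blood. The set holds 10 genes, Alox5, Alox5ap, Alox12, Alox15, Ptgs1, Ptgs2, Ptges, Lta4h, Ltc4s and Hpgds, chosen by name for their place in the pathway and found in the gene tables by identifier, out of 43346 gene entries. Total RNA was sequenced in 4 libraries, 2 of monocytes and 2 of neutrophils, all drawn from peripheral blood of C57BL6 mice described as adult, with no treatment or altered allele named. Both cell types came from blood spun on Ficoll. Monocytes were sorted from the mononuclear layer, as Gr-1+Mac-1+ cells in the labels and by a gate that is negative for Ly6g and positive for CD11b in a supplementary table of the study. Neutrophils came from the pellet after lysis of the red cells, and no sort is described for them. Per the study's methods, replicates came from separate groups of mice or were aliquots of 1 group handled apart, so the p-values below measure only the spread between these libraries.

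Eicosanoids are signalling lipids made from arachidonic acid, a fatty acid that phospholipases free from membranes. Lipoxygenases turn it into leukotrienes and hydroxylated fatty acids, and cyclooxygenases turn it into prostaglandins and thromboxane. Blood phagocytes are among the main sources of leukotriene B4, which draws neutrophils to inflamed tissue, while platelets, mast cells and eosinophils each carry other branches of the pathway.

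The 4 libraries held 26076261 and 25538433 counts in monocytes, against 21634828 and 20549572 counts in neutrophils. Of 14 monocyte markers 13 were higher in monocytes, and of 14 neutrophil markers 13 were higher in neutrophils. The exceptions were Ly6c2, a monocyte marker that was not called, and Retnlg, a neutrophil marker that was called higher in monocytes. Ly6g, Camp and Stfa2l1 had 0 counts in both monocyte libraries. Other cells left their marks in both preparations: all 10 NK cell markers were higher in monocytes (summed level 2808 and 2830 CPM, against 31.7 and 32.2 CPM in neutrophils), and all 10 B cell markers were higher in neutrophils (383 and 477 CPM in monocytes, against 3063 and 2976 CPM in neutrophils). CPM is a count scaled to a common library total. Of 10 T cell markers, 7 were higher in neutrophils, 1 in monocytes, and 2 were not called. Their summed level was 56.7 and 69.1 CPM in monocytes, against 161 and 169 CPM in neutrophils. Of 7 red cell markers, 4 were higher in neutrophils, 1 in monocytes, and 2 were not called. They summed to 6236 and 6640 CPM in monocytes, against 8105 and 8677 CPM in neutrophils. The part of NK, B, T and red cells in the values below was not tested. Xist, a transcript of female cells, had 0 and 0 counts in monocyte libraries and 5088 and 4878 counts in neutrophil libraries, although the study's methods name male mice, so the sex of the mice and the cell type cannot be told apart in what follows.

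Of the 10 enzymes, 2 were higher in monocytes (Alox15 and Lta4h), 3 were higher in neutrophils (Alox12, Ptgs2 and Alox5), 3 did not pass the test (Alox5ap, Ptgs1 and Hpgds) and 2 had too few counts to be tested (Ptges and Ltc4s). The test was edgeR's quasi-likelihood F test over 14309 genes, and a gene was called at a Benjamini-Hochberg adjusted p under 0.05. Over all genes tested, 20.8% were called higher in monocytes and 21.8% higher in neutrophils, 42.6% in either direction. With 8 enzymes tested, 2 calls on the monocyte side and 3 on the neutrophil side lie too near these shares for the number of calls to say anything particular about the set. The median log2 fold change, monocyte over neutrophil, was -0.66 over the 8 tested enzymes and -0.06 over all genes tested. Every log2 fold change below is monocyte over neutrophil, with its standard error.

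**Figure D1:**
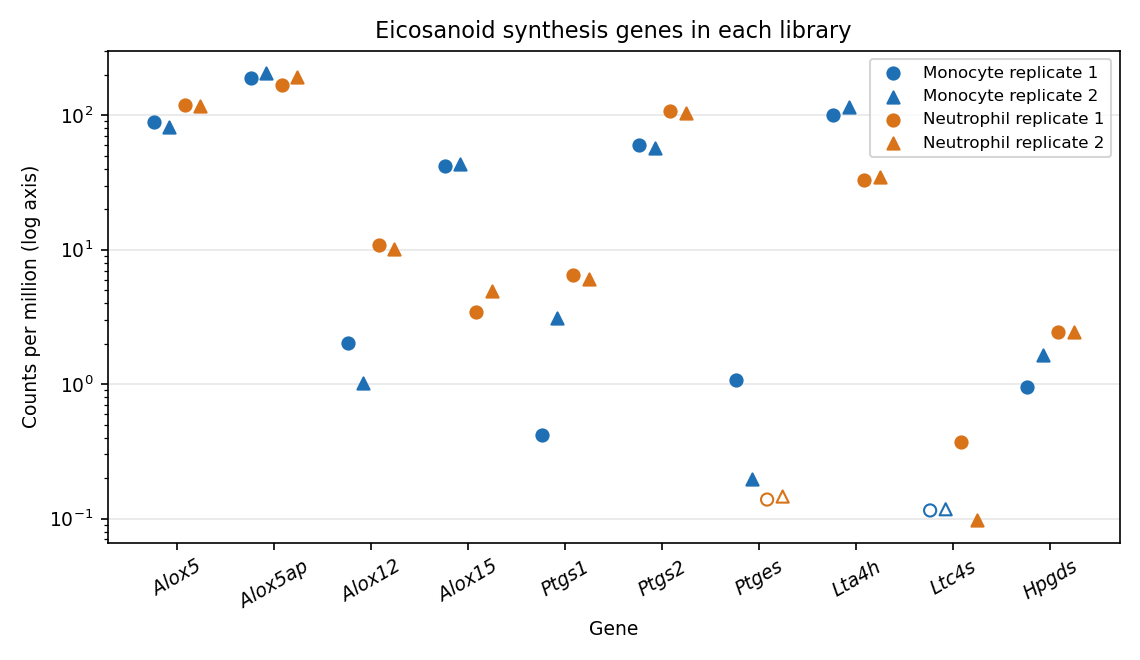
Counts scaled by library total (CPM, log axis) of the 10 enzymes in the 2 monocyte libraries (blue) and the 2 neutrophil libraries (orange), with circles for replicate 1 and triangles for replicate 2. Open symbols stand for 0 counts and are drawn at the level that 3 counts would have in that library. Alox15 and Lta4h sit higher in both monocyte libraries, Alox12 and Ptgs2 sit higher in both neutrophil libraries, and the Ptgs1 and Ptges symbols of the monocyte libraries lie far apart.

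Leukotriene synthesis begins with Alox5 and Alox5ap. Alox5 encodes 5-lipoxygenase, which makes leukotriene A4, and Alox5ap encodes the membrane protein that hands arachidonic acid to it. From there the pathway forks: Lta4h, leukotriene A4 hydrolase, makes leukotriene B4, and Ltc4s, leukotriene C4 synthase, joins glutathione to leukotriene A4 and opens the cysteinyl branch. The sequences just before the start sites of Alox5 and Lta4h are shown because these consecutive steps differed between the cell types in opposite directions. They are 250 bases long, come from RefSeq on GRCm38.p6 (the mm10 build) and read 5′ to 3′ on the gene's strand, Alox5 at chr6:116461179-116461428 on the minus strand and Lta4h at chr10:93453146-93453395 on the plus strand. Capitals mark a GC box.
Alox5: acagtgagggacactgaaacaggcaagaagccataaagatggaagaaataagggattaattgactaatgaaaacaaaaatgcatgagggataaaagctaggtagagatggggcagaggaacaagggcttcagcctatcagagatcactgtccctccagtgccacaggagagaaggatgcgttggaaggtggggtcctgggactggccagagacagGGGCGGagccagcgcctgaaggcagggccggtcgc
Lta4h: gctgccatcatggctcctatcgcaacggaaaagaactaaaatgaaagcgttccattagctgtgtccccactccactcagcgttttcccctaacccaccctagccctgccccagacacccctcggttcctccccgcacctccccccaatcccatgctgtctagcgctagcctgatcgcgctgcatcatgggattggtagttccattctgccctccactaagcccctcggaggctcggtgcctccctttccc

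RefSeq windows that run from 250 bases before to 50 bases after the start were found for 8 of the 10 enzymes, and Alox5ap and Alox15 had no entry. Each window was searched on both strands for a TATA box (TATAAA, in 13.6% of all 32851 windows of this length), the core of the PU.1 site (GAGGAAG, 13.6%), a C/EBP-like site (TTNNGCAA, 10.8%), a GC box (GGGCGG, 35.7%) and the core of a cyclic AMP response element (TGACG, 20.8%). PU.1 and C/EBP proteins are transcription factors of the myeloid lineages. The GC box and this last core were added to the search after the sequences had been seen. None of the 8 windows held TATAAA. Alox5 held 1 GC box, from -35 to -30 with the start base counted as 0, and Lta4h held none of the 5 motifs. Elsewhere Alox12 held 3 GC boxes, Ptges held 2 and Ltc4s held the PU.1 core at 15 to 21 on the opposite strand, while Hpgds held a PU.1 core at -49 to -43 and a C/EBP-like site at -176 to -169. Such a match describes the letters and does not show that a factor binds there.

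Lta4h (ENSMUSG00000015889.7, chr10:93453411-93484875, plus strand, mm10) had 2636 and 2946 counts in the monocyte libraries, against 719 and 711 counts in the neutrophil libraries. At the scale of library totals that is 101 and 115 CPM in monocytes and 33.2 and 34.6 CPM in neutrophils. Both monocyte libraries stood well above both neutrophil libraries, and the replicates of a type lay close together. This gave a log2 fold change of 1.67 ± 0.12, or 3.19-fold higher in monocytes, with an adjusted p of 0.000324 in edgeR's quasi-likelihood test. Leaving out any 1 library gave log2 fold changes between 1.55 and 1.75, all called higher in monocytes. In bulk RNA such a difference may come from more cells that carry the transcript or from more of it per cell, and these cannot be told apart here or for the genes that follow.

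Alox5 (ENSMUSG00000025701.8, chr6:116410077-116461178, minus strand) had 2336 and 2101 counts in monocytes, against 2571 and 2410 counts in neutrophils, or 89.6 and 82.3 CPM against 119 and 117 CPM. The CPM ranges did not overlap, but the gap was small. Alox5 was higher in neutrophils at a log2 fold change of -0.46 ± 0.09 (adjusted p = 0.0121, edgeR), or 1.38-fold. This call was lost in several other fits, among them the one with an offset for effective length, where the value was -0.28 with an adjusted p of 0.213. Without neutrophil replicate 1 it was -0.47 (adjusted p = 0.0903) and without neutrophil replicate 2 it was -0.49 (adjusted p = 0.0706), each with edgeR and a lone neutrophil library that is assumed to vary like the monocyte pair. Per length the groups overlapped, with 9.76 and 7.23 TPM in monocytes and 9.57 and 10.5 TPM in neutrophils, where TPM is a level corrected for transcript length. The mean length of the Alox5 transcripts, weighted by their estimated abundance, was 2314 and 2571 bases in monocytes and 2946 and 2513 bases in neutrophils. B cells, which also make 5-lipoxygenase, had their markers higher in the neutrophil libraries, as given above, and their part in the Alox5 value was not tested.

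Alox5ap (ENSMUSG00000060063.6, chr5:149264767-149288153, plus strand) was the most abundant of the 10 enzymes per length in every library, at 65.4 and 63.2 TPM in monocytes and 55.2 and 58.7 TPM in neutrophils. That placed it between rank 185 and rank 236 of 21474 protein-coding genes. In counts it stood at 4952 and 5260 in monocytes, against 3662 and 3956 in neutrophils, which is 189.9 and 206 CPM against 169 and 193 CPM. The groups overlapped in CPM. Its log2 fold change was 0.13 ± 0.10, with a 95% interval from -0.13 to 0.39 and an adjusted p of 0.372 (edgeR).

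Because the 3 genes of the leukotriene B4 route were all well covered, their ratios within a library could be set side by side. These do not depend on how libraries are scaled to each other. Lta4h stood at 1.28 and 1.77 times the TPM of Alox5 in monocyte replicates 1 and 2, against 0.41 and 0.364 times in neutrophil replicates 1 and 2. Alox5ap stood at 6.70 and 8.73 times the TPM of Alox5 in monocytes, against 5.77 and 5.57 times in neutrophils. The order of Lta4h and Alox5 was thus turned round between the cell types, with Lta4h above Alox5 in both monocyte libraries and below it in both neutrophil libraries. With 2 libraries a side, an exact two-sided permutation test cannot go below a p of 0.333, and none was run on these ratios.

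Ltc4s (ENSMUSG00000020377.10, chr11:50236461-50238616, minus strand) had few counts or none. It had 0 and 0 counts in monocytes, against 8 and 2 counts in neutrophils. The neutrophil pair stood 4.08-fold above a floor of 3 counts over the monocyte pair. However, 8 of the 10 neutrophil counts came from replicate 1, and the 2 counts of replicate 2 alone gave a ratio of 1.67 to that floor. Ltc4s was not tested because of its low counts. Of the counts for the enzymes at the fork, Ltc4s and Lta4h together, Ltc4s held 0 of 2636 and 0 of 2946 in monocytes, which allow shares of up to 0.114% and 0.102%. In neutrophils it held 1.10% (95% Wilson interval 0.559 to 2.16) and 0.281% (0.077 to 1.02). Gm26542, an antisense gene that overlaps Ltc4s, had 14 and 12 counts in monocytes, against 1 and 10 counts in neutrophils, and the sources used here do not say whether the counting used strand. Intervals and limits of this kind cover counting error only, since the libraries carry no molecular identifiers.

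Basophils, mast cells and eosinophils are known for Ltc4s, so their markers stand beside this result. Of 12 basophil and mast cell markers, 8 were higher in monocytes and 1, Hdc, was higher in neutrophils. Their summed level was 309.8 and 316 CPM in monocytes, against 349 and 357 CPM in neutrophils. Hdc alone, a histidine decarboxylase that neutrophils also make, held 87.2 and 80.2 CPM of this in monocytes and 339 and 348 CPM in neutrophils, and without it the other 11 summed to 223 and 235 CPM in monocytes and 10.4 and 8.53 CPM in neutrophils. Mcpt8, a basophil protease, had 90 and 255 counts in monocytes and 0 and 0 in neutrophils, and of the mast cell proteases Cma1, a chymase, had 1439 and 1794 counts in monocytes, against 16 and 3 in neutrophils. Cpa3, a carboxypeptidase of mast cells and basophils, had 416 and 420 counts in monocytes, against 39 and 13 in neutrophils, while Mcpt4 and Tpsb2 had 0 counts in all 4 libraries. Monocyte libraries thus held more RNA of 8 of these markers and 0 counts of Ltc4s.

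The other lipoxygenases in the set, Alox15 and Alox12, were higher in opposite cell types. Mouse Alox15 encodes the leukocyte 12/15-lipoxygenase, known from resident macrophages and eosinophils, and Alox12 encodes the platelet type of 12-lipoxygenase. Their genes lie near each other on chromosome 11, both on the minus strand. Alox15 (ENSMUSG00000018924.6, chr11:70344152-70352031) had 1091 and 1104 counts in monocytes, against 75 and 101 counts in neutrophils. Both monocyte libraries were far above both neutrophil libraries, at 41.8 and 43.2 CPM against 3.47 and 4.91 CPM. Alox15 had a log2 fold change of 3.34 ± 0.22 (adjusted p = 0.00025, edgeR), or 10.1-fold, the largest among the tested enzymes.

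**Figure D2:**
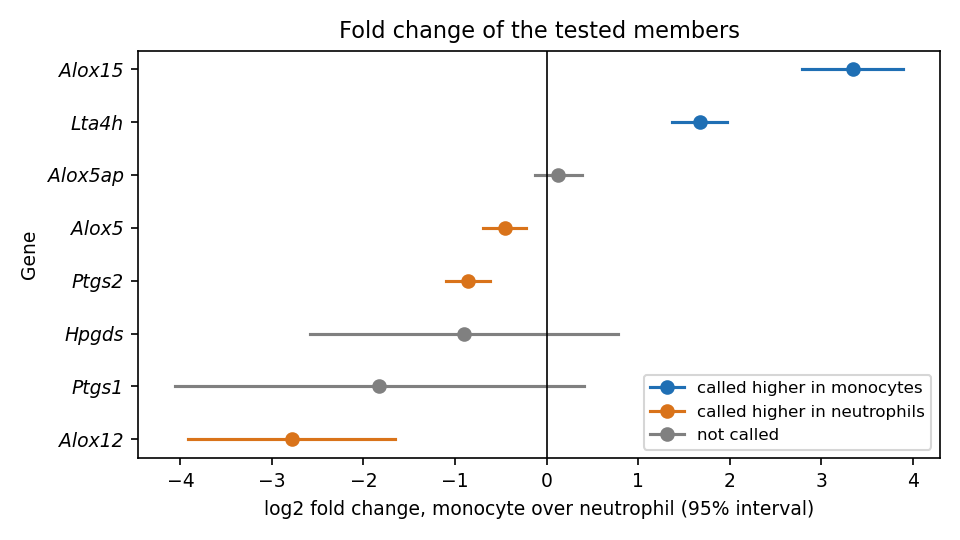
Log2 fold change, monocyte over neutrophil, of the 8 tested enzymes (points) with 95% intervals (bars), from edgeR. Alox15 (3.34) and Lta4h (1.67) lie to the right of 0, Alox5 (-0.46), Ptgs2 (-0.86) and Alox12 (-2.78) lie to the left with intervals clear of 0, and the intervals of Hpgds, Ptgs1 and Alox5ap cross 0.

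Alox12 (ENSMUSG00000000320.6, chr11:70241457-70255353) went the other way. It had 53 and 26 counts in monocytes, against 235 and 209 counts in neutrophils, or 2.03 and 1.02 CPM against 10.9 and 10.2 CPM. Both neutrophil libraries stood above both monocyte libraries. At a log2 fold change of -2.78 ± 0.45 it was 6.88-fold higher in neutrophils (adjusted p = 0.00559, edgeR). Leaving out 1 library at a time moved it between -3.38 and -2.39, and it was called each time.

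Of the counts of both genes together, Alox15 held 95.4% (95% Wilson interval 94.0 to 96.4) and 97.7% (96.7 to 98.4) in the monocyte libraries. In the neutrophil libraries it held 24.2% (19.8 to 29.3) and 32.6% (27.6 to 38.0). Alox15 was thus the main one of this pair in monocytes and Alox12 in neutrophils. Weighed per length by TPM, the shares of Alox15 were 96.2% and 98.1% in monocytes, against 30.5% and 42.8% in neutrophils, which kept that order.

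**Figure D3:**
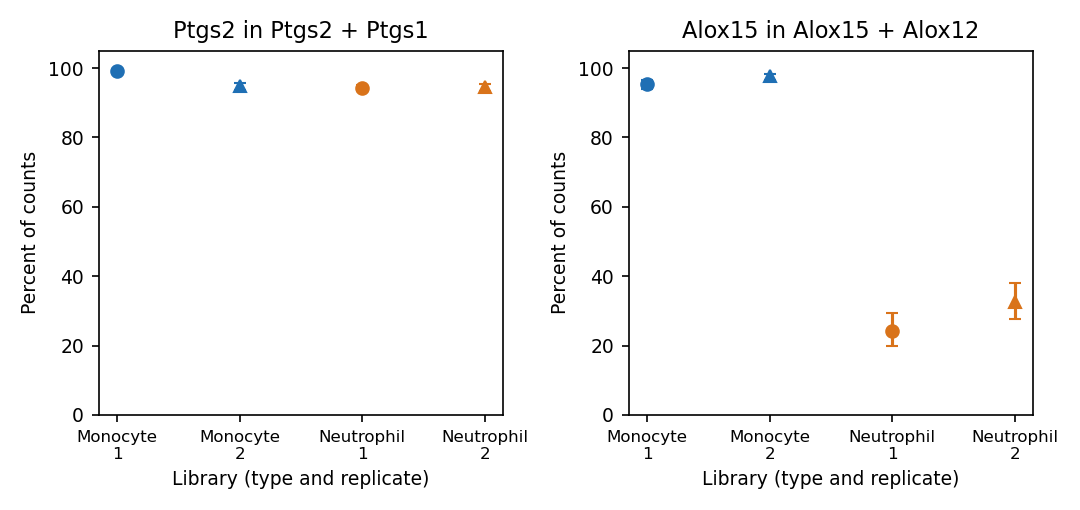
Percent of counts within each of the 4 libraries that fell on Ptgs2 out of Ptgs2 and Ptgs1 (left) and on Alox15 out of Alox15 and Alox12 (right), with 95% Wilson intervals as bars. The left shares lie between 94.3% and 99.3% in all libraries, while the right ones are over 95% in monocytes and 24.2% and 32.6% in neutrophils.

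Markers of the cells best known for these lipoxygenases moved in part with them. Of 12 platelet markers, 5 were higher in neutrophils, 6 were not called, 1 was not tested and 0 were higher in monocytes. Their summed level was 92.5 to 111 CPM in monocytes and 157 to 167 CPM in neutrophils. Itgb3 held 61.4 and 43.1 CPM of this in monocytes and 63.6 and 60.4 CPM in neutrophils. Itga2b held 31.2 and 30.9 CPM in monocytes and 23.9 and 29.0 CPM in neutrophils. These integrins, neither of them called, made up most of each sum. Gp9 and F2rl3 had 0 counts in both monocyte libraries, and Ppbp, a platelet chemokine, had 221 and 276 counts in monocytes, against 780 and 797 counts in neutrophils. Their part in the Alox12 result was not tested. Of 8 eosinophil markers, 1 was higher in monocytes, Ccr3, with 4325 and 4383 counts in monocytes, against 264 and 267 in neutrophils, and the list summed to 203 to 207 CPM in monocytes and 50.8 to 55.2 CPM in neutrophils. Without Ccr3 the other 7 summed to 37.6 and 35.2 CPM in monocytes and 38.6 and 42.2 CPM in neutrophils, and Siglecf and Il5ra were not called. Epx, the eosinophil peroxidase, had 0 and 0 counts in monocytes, against 1 and 0 counts in neutrophils. Of 12 markers of tissue macrophages and dendritic cells, 2 were higher in monocytes, and their summed level was 468 and 452 CPM in monocytes and 66.6 and 65.2 CPM in neutrophils. Nearly all of it was Adgre1, the F4/80 antigen, with 11838 and 11264 counts in monocytes, against 1319 and 1186 in neutrophils, and the other called marker was Zbtb46, with 117 and 80 counts in monocytes, against 16 and 11 in neutrophils. C1qb, Vsig4, Timd4 and Marco had 0 counts in all 4 libraries. The part of rare eosinophils or macrophages in the Alox15 result was not tested.

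Prostaglandin synthesis runs through the cyclooxygenases, which make prostaglandin H2. Ptgs1 encodes the form present in many resting cells, platelets among them, and Ptgs2 the form that inflammatory signals induce. The 250 bases before the start of each are printed because these isozymes make the same product and differed widely in level. Again they are RefSeq sequence on GRCm38.p6, both on the plus strand, Ptgs1 at chr2:36230176-36230425 and Ptgs2 at chr1:150099781-150100030. Capitals mark the PU.1 core in Ptgs1, and a GC box and then a C/EBP-like site in Ptgs2.
Ptgs1: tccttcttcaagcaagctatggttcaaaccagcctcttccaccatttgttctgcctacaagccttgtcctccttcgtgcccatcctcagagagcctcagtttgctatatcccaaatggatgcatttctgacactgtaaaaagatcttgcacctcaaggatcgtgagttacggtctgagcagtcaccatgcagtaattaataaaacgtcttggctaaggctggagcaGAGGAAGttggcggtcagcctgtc
Ptgs2: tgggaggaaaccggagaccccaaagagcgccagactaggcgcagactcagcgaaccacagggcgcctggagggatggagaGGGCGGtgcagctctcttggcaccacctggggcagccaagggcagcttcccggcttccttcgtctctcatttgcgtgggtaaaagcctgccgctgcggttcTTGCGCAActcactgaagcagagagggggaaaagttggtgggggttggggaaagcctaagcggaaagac

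The PU.1 core of Ptgs1 lay from -24 to -18, and the window held no other of the 5 motifs. In Ptgs2 the GC box lay from -170 to -165, the C/EBP-like site from -69 to -62, and the core of the cyclic AMP response element followed the start, from 13 to 17 on the opposite strand. No 2 of these matches overlapped.

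Ptgs2 (ENSMUSG00000032487.8, chr1:150100031-150108227, plus strand) was the abundant cyclooxygenase in both cell types. It had 1569 and 1449 counts in monocytes, against 2334 and 2127 counts in neutrophils, or 60.2 and 56.7 CPM against 108 and 104 CPM. Both neutrophil libraries stood above both monocyte libraries. Ptgs2 was 1.81-fold higher in neutrophils, at a log2 fold change of -0.86 ± 0.10 (adjusted p = 0.00146, edgeR), and the call held with limma on TPM and without any 1 library. Ptgs2os, an antisense gene beside it, had 16 and 0 counts in monocytes, against 15 and 24 counts in neutrophils, which is little beside the counts of Ptgs2.

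Ptgs1 (ENSMUSG00000047250.9, chr2:36230426-36252272, plus strand) had 11 and 79 counts in monocytes, against 140 and 124 counts in neutrophils. In CPM these were 0.422 and 3.09, against 6.47 and 6.03. The groups did not overlap, but the monocyte replicates differed by more than the gap between the higher of them and the neutrophils' lower one on a log scale. Ptgs1 had a log2 fold change of -1.83 ± 0.90, with a 95% interval from -4.06 to 0.41, and it did not pass the test (adjusted p = 0.16, edgeR). The size depended on the monocyte library: without replicate 1 the value was -1.03 (adjusted p = 0.0305), and without monocyte replicate 2 it was -3.89 (adjusted p = 5.8e-05). Each edgeR fit with a lone monocyte library called Ptgs1 higher in neutrophils. In counts of the 2 cyclooxygenases together, Ptgs2 held 99.3% (95% Wilson interval 98.8 to 99.6) and 94.8% (93.6 to 95.8) in monocytes, against 94.3% (93.4 to 95.2) and 94.5% (93.5 to 95.4) in neutrophils. Per length by TPM, those shares were 94.5% and 78.9% in monocytes, against 83.2% and 85.4% in neutrophils, which overlapped. The platelet markers given with Alox12 bear on Ptgs1 too, and their part in its values was not tested.

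The transcripts estimated for Ptgs1 were short on average. Its mean transcript length was 697 and 1035 bases in monocytes, against 1434 and 1624 bases in neutrophils. The coding transcript is 2867 bases long in the GENCODE M21 annotation. The study estimated its gene levels with an earlier GENCODE release, so transcript lengths may differ between them. Such a mean is weighted by estimated transcript abundance and does not give the share of reads on short transcripts. The value of monocyte replicate 1, which had 11 counts, equals the length of 1 transcript in GENCODE M21, a retained intron of 697 bases. All 4 libraries fell short of the coding length, and the monocytes fell shorter.

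**Figure D4:**
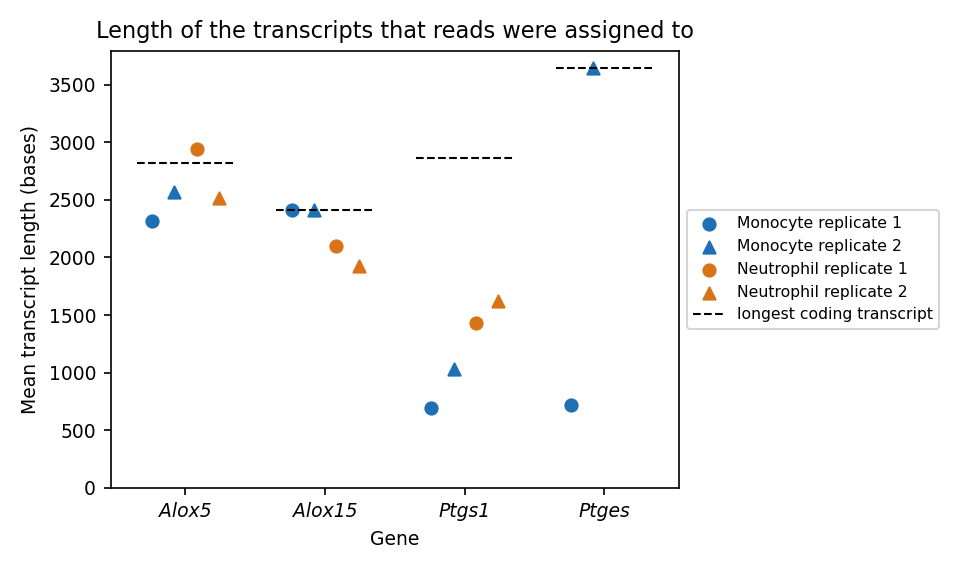
Mean transcript length, in bases, of Alox5, Alox15, Ptgs1 and Ptges, weighted by estimated transcript abundance and not by reads. The 2 monocyte libraries are blue and the 2 neutrophil libraries orange, with dashed lines at the longest coding transcript of GENCODE M21. The study's lengths come from an earlier GENCODE release. Ptgs1 lies under its dashed line of 2867 bases in every library, and Ptges lies at 723 bases in monocyte replicate 1 and at 3647 bases in monocyte replicate 2 (neutrophils had 0 counts of Ptges and are not drawn).

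Terminal synthases make the final prostaglandins. Ptges (ENSMUSG00000050737.13, chr2:30889471-30929863, minus strand), the inducible prostaglandin E synthase, had 28 and 5 counts in monocytes, against 0 and 0 counts in neutrophils. The monocyte pair stood 8.99-fold above a floor of 3 counts over the neutrophil pair. Of its 33 counts, 28 came from replicate 1, and replicate 2 alone gave a ratio of 2.75 to that floor. Ptges had too few counts for the main test. With no filter on low counts its adjusted p was 0.0823 (edgeR), and without monocyte replicate 2, the lower one, it was 0.011. The mean transcript length was 723 bases in monocyte replicate 1, close to a noncoding transcript of 703 bases in GENCODE M21. In replicate 2 it was 3647 bases, the length of the coding transcript there.

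Hpgds (ENSMUSG00000029919.4, chr6:65117293-65144908, minus strand), the hematopoietic prostaglandin D synthase known from mast cells, had 25 and 42 counts in monocytes, against 53 and 50 counts in neutrophils. In CPM it stood at 0.959 and 1.64, against 2.45 and 2.43. Both neutrophil libraries were the higher ones, but on a log scale their gap to the higher monocyte library was smaller than the spread of the monocytes. Hpgds had a log2 fold change of -0.91 ± 0.68 (adjusted p = 0.334, edgeR), with a 95% interval from -2.59 to 0.78. The mast cell markers are those given with Ltc4s, and their part in this value was not tested.

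Below Alox5ap, which came first in all 4 libraries, the order of the enzymes by TPM differed between the cell types. Alox5ap was followed in monocytes by Lta4h (12.5 and 12.8 TPM), Alox5, Alox15 (4.36 and 4.07 TPM) and Ptgs2 (3.28 and 2.80 TPM). In neutrophils the order went on with Alox5 (9.57 and 10.5 TPM), Ptgs2 (5.64 and 5.10 TPM), Lta4h (3.92 and 3.84 TPM) and Ptgs1 (1.14 and 0.87 TPM). No neighbours among these first 5 overlapped in monocytes or in neutrophils, while lower down Ptgs1 overlapped with Ptges in monocytes (0.19 and 0.75 TPM beside 0.46 and 0.01 TPM) and with Alox12 in neutrophils (0.91 and 0.79 TPM). Alox12, Hpgds and Ltc4s stayed under 1 TPM in every library, as did Ptges. Since entries other than protein-coding genes fill most of each library's TPM (protein-coding genes held 8.04% to 10.3%), TPM values here are low for coding genes as a whole.

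The enzymes and receptors around the set were taken from lists of other eicosanoid genes. Of 104 such genes 101 were found, 70 were tested, 22 were higher in monocytes and 13 were higher in neutrophils, with a median log2 fold change of 0.10 over the tested ones and -0.06 over all genes. Beside the background of 20.8% and 21.8%, this is a larger share on the monocyte side and a smaller one on the neutrophil side, with no test of that difference. In 6 of the 10 lists genes were called in both directions. With 20.8% and 21.8% of all tested genes called, calls on both sides are not particular to these lists. The counts per list below stand beside those same shares, and no list was tested as a set.

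**Figure D5:**
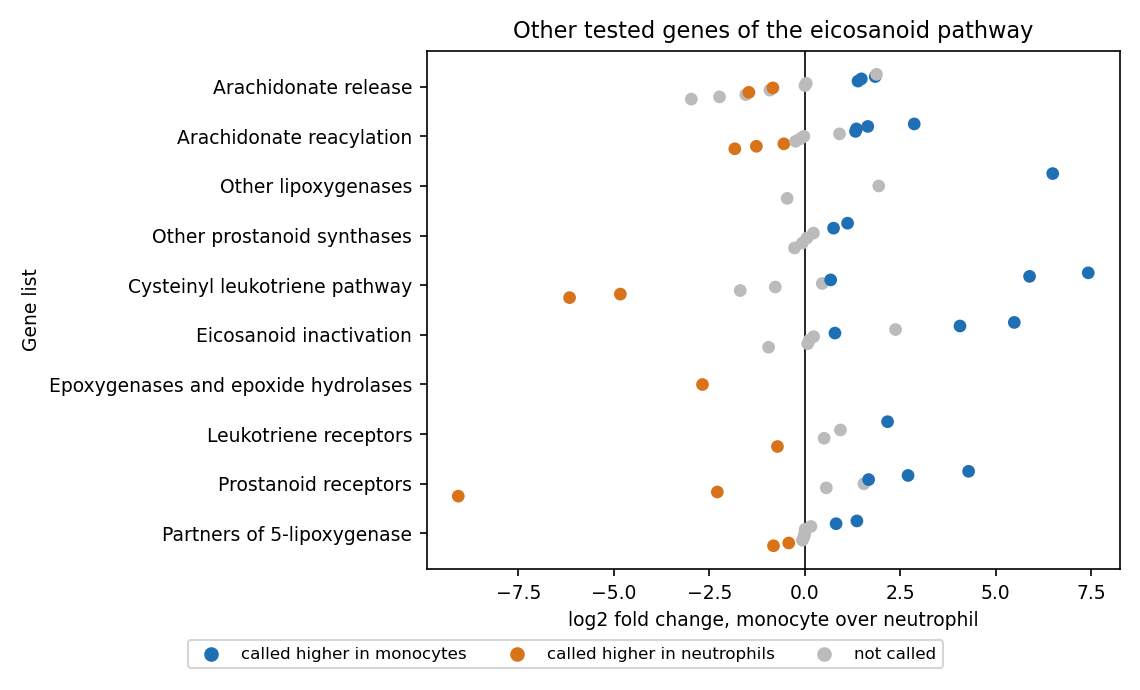
Log2 fold change, monocyte over neutrophil, of the 70 tested genes in 10 lists of the wider pathway (1 point a gene), coloured by call at an adjusted p under 0.05 in edgeR. Points called higher in monocytes (22) and in neutrophils (13) occur within the same lists, and the 2 points farthest out on each side belong to genes with 0 counts in at least 1 library.

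Release of arachidonic acid and its return to membranes involved genes called on both sides. Pla2g4a, the cytosolic phospholipase A2 that frees arachidonic acid, had 800 and 556 counts in monocytes, against 144 and 163 counts in neutrophils (log2 fold change 1.84 ± 0.25, adjusted p = 0.00281, edgeR). Both monocyte libraries stood above both neutrophil libraries. In this list 3 of 12 tested genes were called higher in monocytes and 2 in neutrophils. Daglb, a diacylglycerol lipase, had 1853 and 1253 counts in monocytes, against 450 and 456 in neutrophils, at 1.48 ± 0.21. Plcb2, a phospholipase C of chemoattractant signalling, was higher in neutrophils at -0.84 ± 0.10, and Plcg2, the phospholipase C with the highest TPM of the list, had a value of 0.00 ± 0.09.

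In the list for the return of arachidonic acid to phospholipids, 4 of 11 tested genes were called higher in monocytes and 3 in neutrophils. The list was not sorted by the fatty acid that each enzyme prefers. Mboat1, a lysophospholipid acyltransferase, had 598 and 429 counts in monocytes, against 64 and 51 counts in neutrophils (2.86 ± 0.29). Acsl5, an acyl-CoA synthetase, was higher in monocytes at 1.33 ± 0.09. Among those higher in neutrophils, Lpcat1 stood at -1.83 ± 0.15 and Lpcat2 at -0.55 ± 0.10. Both are acyltransferases, Lpcat2 also of platelet activating factor.

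Beyond the set, the terminal enzymes of prostaglandins included 2 of 6 tested genes called higher in monocytes and 0 called higher in neutrophils. These were Ptges3, the constitutive prostaglandin E synthase, at 0.75 ± 0.10, and Akr1b3, an aldose reductase that can make prostaglandin F2α, at 1.12 ± 0.17. Their counts were not whole, so some reads were shared with other loci. Alox8, a mouse lipoxygenase, had 54 and 81 counts in monocytes, against 0 and 1 counts in neutrophils, and was higher in monocytes (adjusted p = 0.0115, edgeR). Without neutrophil replicate 1 that call was lost (adjusted p = 0.0819, edgeR). Alox12e had at most 15 counts in any library and was not called.

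The enzymes that process leukotriene C4 differed sharply. Leukotriene C4 is cut by gamma-glutamyl transferases to leukotriene D4, and dipeptidases turn that into leukotriene E4. Ggt5, the transferase known for this step, had 34 and 0 counts in monocytes, against 956 and 1029 counts in neutrophils, with a log2 fold change of -6.16 ± 0.88 (adjusted p = 0.0035, edgeR). Without monocyte replicate 1, the only monocyte library with counts, that value was fitted against 0 counts and is no measure of size, and without monocyte replicate 2 it was -5.19. Dpep2, a dipeptidase of leukotriene D4, stood the other way, with 1255 and 1502 counts in monocytes, against 21 and 17 counts in neutrophils (5.88 ± 0.23, adjusted p = 4.6e-05). These consecutive steps were thus higher in opposite cell types, with no overlap of the groups. Mgst1, a microsomal glutathione transferase, was higher in monocytes at 0.68 ± 0.12, and this call was lost without neutrophil replicate 2 (adjusted p = 0.0947, edgeR). In all, 3 of the 8 tested genes of this list were called higher in monocytes and 2 in neutrophils.

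Hpgd, which inactivates prostaglandins by oxidising their 15-hydroxyl group, had 8227 and 6392 counts in monocytes, against 131 and 135 counts in neutrophils. It was the most different gene of the inactivation list, at a log2 fold change of 5.48 ± 0.16 (adjusted p = 2.9e-05, edgeR), or 44.7-fold. Within a library, Hpgd stood at 14.5 and 12.1 times the TPM of Ptgs2 in monocytes, against 0.154 and 0.175 times in neutrophils. The transcript of this degrading enzyme thus stood above the main cyclooxygenase in monocytes and below it in neutrophils. Cyp4f16, of the cytochrome family that oxidises leukotriene B4, was higher in monocytes at 4.06 ± 0.17, with counts that were not whole because reads were shared among related loci. Cyp4f18, the main leukotriene B4 oxidase of mouse neutrophils, had 3928 and 4220 counts in monocytes, against 2804 and 2859 in neutrophils, and was not called (0.23 ± 0.10, adjusted p = 0.111). Among 8 tested inactivation genes, 3 were called higher in monocytes and 0 in neutrophils. Ephx1, an epoxide hydrolase, was the 1 tested gene of the epoxygenase list and was higher in neutrophils at -2.69 ± 0.30, while Ephx3 had at most 12 counts in any library and was not tested.

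Receptors followed no single direction. Tbxa2r, the thromboxane receptor, had 0 and 0 counts in monocytes, against 69 and 52 counts in neutrophils. The neutrophil pair stood 49.3-fold above a floor of 3 counts over the monocyte pair, and neutrophil replicate 2 alone 43.5-fold. The call of Tbxa2r was lost without neutrophil replicate 1. Of the 12 platelet markers given with Alox12, 5 were higher in neutrophils too and 6 were not called, and their part was not tested. Ptger3 and Ptger4, receptors of prostaglandin E2, were higher in monocytes at 4.29 ± 0.62 and 1.67 ± 0.15. Ptgir, the prostacyclin receptor, had 502 and 335 counts in monocytes, against 43 and 61 counts in neutrophils (2.70 ± 0.37). Across the prostanoid receptors 3 of 7 tested genes were called higher in monocytes and 2 in neutrophils. Among the leukotriene and lipoxin receptors 1 of 4 was higher in each. Cysltr2, a receptor of cysteinyl leukotrienes, was higher in monocytes at 2.17 ± 0.66, and Fpr2, a receptor of lipoxin A4 and formyl peptides, was higher in neutrophils at -0.72 ± 0.17. Both calls were lost without either neutrophil library. Ltb4r1, the receptor of leukotriene B4, had 388 and 263 counts in monocytes, against 133 and 144 counts in neutrophils, and just missed the threshold (0.93 ± 0.30, adjusted p = 0.052), while DESeq2 called it (adjusted p = 0.0457).

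The last list held 10 genes around 5-lipoxygenase, some of which bind or phosphorylate it. All 10 were tested, and 2 were higher in monocytes and 2 in neutrophils. Mapkapk2, a kinase of 5-lipoxygenase, had 6467 and 7411 counts in monocytes, against 2154 and 2248 counts in neutrophils (1.36 ± 0.12, adjusted p = 0.000543, edgeR). Anxa1, annexin A1, which restrains phospholipase A2, was higher in neutrophils at -0.82 ± 0.09. Cotl1, a coactosin-like protein that binds 5-lipoxygenase, had 5192 and 5260 counts in monocytes, against 4499 and 3987 counts in neutrophils, with a value of 0.01 ± 0.08.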

How the data were processed

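Total RNA of 2 monocyte and 2 neutrophil libraries was depleted of ribosomal RNA and made into random-primed libraries without molecular identifiers, per the labels. The authors aligned reads to mm10 with STAR and estimated gene levels with RSEM. The deposited files hold, per library and gene, expected counts and TPM, and the posterior mean counts of the authors' RSEM run are a further set of expected counts. The posterior standard deviation and the lengths, score values in the deposited files, served to check read assignment. Each file has 69690 entries, of which 43346 are genes, and the 96 spike-in and 26248 numeric entries (at most 0.000594% of counts) were left out. Symbols and coordinates came from GENCODE M21, matched for 42462 identifiers, and all 10 members were found. All 40 member counts were whole within 0.005.

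Expected counts were rounded, filtered with filterByExpr (minimum count 10), scaled by TMM (factors 0.994 to 1.01) and tested with edgeR 4.0.16 in R 4.3.3 across 14309 genes, monocyte over neutrophil. Groups came from the labels' descriptions, and replicate numbers follow deposit order. Each library counted as 1 replicate. Within a type the libraries differed by more than sampling noise (chi-square per degree of freedom 42.2 in monocytes and 24.7 in neutrophils). That spread cannot tell separate groups of mice from aliquots of 1 group. Alternatives were other scalings, filters, limma 3.58.1 on log2(TPM + 1) and log2(TPM + 0.1), DESeq2 1.42.0, an effective length offset, posterior mean counts, leaving out abundant genes or each library, and testing against a 2-fold change. The fit was tested on simulated data. The simulated libraries varied less than the monocyte pair, so that test does not cover calls at the real spread. Named pathway genes were the 2 with the highest TPM in each list and up to 2 called genes with the largest fold change at 1 CPM or more in both libraries of the higher group. The members, lists and tests were chosen with earlier results of these data known. In tests without a library, the lone library is assumed to vary like the other pair. 1 marker gene is not reported here and was left out of its list.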

Additional observations from a re-analysis of the deposited data

Results flagged for a closer look

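Counts also appeared outside the gene entries, in data that no comparison used. The spike-in controls, RNA sequences added for calibration, had 85 counts in monocyte replicate 1 and 16 counts in monocyte replicate 2, above the limit of 3 counts that a count of 0 allows, and 0 counts in both neutrophil libraries. The entries with numeric identifiers had 70 and 8 counts in monocyte replicates 1 and 2, against 37 and 46 counts in neutrophil replicates 1 and 2. No eicosanoid enzyme is among these entries.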

How the results depend on the processing

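The calls of Alox15 and Lta4h held under all alternatives, that of Alox12 under all that tested it (limma did not), and that of Ptgs2 under all but the test against a 2-fold change. The number of enzymes higher in monocytes was 2, and 2 to 3 without 1 library, and the number higher in neutrophils was 3, and 2 to 4 without 1 library. With limma, on log2(TPM + 1) or log2(TPM + 0.1), 1 enzyme was higher in neutrophils, where 5 of the 10 were tested, and the test against a 2-fold change left 1. Of the wider pathway, 22 genes were higher in monocytes (18 to 26 without 1 library, 13 with the 2-fold test). Another 13 were higher in neutrophils, with 7 to 18 without 1 library, 8 with either limma fit and 4 with the 2-fold test. Over all genes, 2974 were higher in monocytes (1984 to 3987 without 1 library, 934 with the 2-fold test). On the neutrophil side 3118 were higher (1810 to 4675 without 1 library, 1801 and 1688 with limma, 1055 with the 2-fold test). The log2 fold change of Alox5 was -0.23 and -0.25 with limma (adjusted p = 0.346 and 0.348). Ptgs1 was called with no filter (adjusted p = 0.0434, edgeR). Mgst1 lost its call with limma on log2(TPM + 0.1) (adjusted p = 0.0514), and the 2-fold test did not call it.

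Values near 0 changed sign. Plcg2 was at -0.039 with upper-quartile factors, at -0.014 both with no filter and with the filter at 10 CPM, and between -0.086 and 0.057 without 1 library. Cotl1 was at -0.033 with upper-quartile factors, -0.0079 with no filter and -0.0082 with the filter at 10 CPM, and between -0.057 and 0.037 without 1 library. Alox12e was at 0.28 with the effective length offset and between -6.24 and 0.51 without 1 library. The cause of these changes was not tested. In all, 521 of 567 recomputed values for 37 genes kept direction and call.

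No paired analysis was possible because the labels give no replicate numbers that monocyte and neutrophil libraries share. Depth limits Ltc4s and Ptges, whose counts of at most 28 in any library did not pass the filter, and 2 libraries a type limit every test.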
